A study of Mus musculus with 3 samples.

Results

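The collagen chain genes are the mouse genes whose symbol is Col, a type number, the letter a and a chain number. They were taken from the array annotation by that symbol pattern, and 44 of the 19938 genes with a single-gene probe set matched. All 44 are in the RefSeq gene table and together they have 46 probe sets, because Col6a5 and Col6a6 have 2 each. For these genes the brighter probe set on average was used. The study compared 3 pools of sorted pancreatic cells, each measured on 1 array. Beta cells came from 3 untreated mice of genotype Fbw7 +/+ with MIP-GFP, a green reporter driven by the insulin promoter. Ductal cells came from 6 mice with Fbw7 +/+ and from 6 mice with Fbw7 F/F, in which both alleles are floxed. Both ductal groups also carried Ck19-CreERT, in which the cytokeratin 19 promoter drives a Cre that tamoxifen activates, and R26-LSL-YFP, a yellow reporter switched on by Cre. They were injected with tamoxifen on 5 days and collected 7 days after the last dose. All mice were C57BL/6 and older than 6 weeks, and 30000 cells were sorted per array. A ductal cell in these pools is therefore any cell in which the cytokeratin 19 promoter drove the Cre, while the beta cell pool had another reporter and no tamoxifen, so that cell type, reporter and treatment cannot be told apart between beta and ductal arrays.

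Collagens are the main structural proteins of the extracellular matrix. Each molecule is a triple helix of chains, which are made in the endoplasmic reticulum, hydroxylated there on proline and lysine, trimmed outside the cell and then crosslinked. Fibrillar collagens build the stiff fibrils of connective tissue and are made mostly by fibroblasts and stellate cells. Type IV collagen forms the sheet-like network of basement membranes under epithelia and around vessels, type VI forms beaded filaments at its edge, and fibril-associated collagens decorate the fibrils. In the pancreas, fibrillar collagen is the matrix that builds up around ducts and acini in fibrosis.

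Values are log2 intensities. A level is called above the floor where it exceeds its array's median over probe sets of 1 gene each, which was 5.30 in beta cells, 5.23 in Fbw7 +/+ and 5.24 in Fbw7 F/F ductal cells. By this definition about 50% of those probe sets lie above the floor in each array. Of the 44 chains, 33 were above the floor in at least 1 array and 11 in none: Col4a3, Col4a4, Col8a1, Col8a2, Col9a1, Col11a1, Col12a1, Col17a1, Col19a1, Col25a1 and Col28a1. With 1 array per group the spread between samples is unknown; the differences below have no replicate check and no p-value. Levels of different genes are not compared, since each probe set has its own response. The targeted gene had 2 probe sets: Fbxw7 read 4.95 in all 3 arrays on one, below the floor, and 7.00 in beta cells, 6.32 in Fbw7 +/+ and 5.71 in Fbw7 F/F ductal cells on the other. Neither checks the deletion, since where its probes lie on the gene, inside or outside the deleted stretch, is not known here.

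The labelled cell types were set against their markers. In the beta cell array Ins2, an insulin gene, read 11.04 and Gcg, the glucagon gene of alpha cells, 11.00, while Pdx1, a beta cell transcription factor, read 5.14, below the floor. Of 9 beta cell markers measured 7 were above the floor in that array. In the ductal arrays the duct keratin Krt19 read 9.13 (Fbw7 +/+) and 9.53 (Fbw7 F/F), and Sox9, a duct transcription factor, 7.29 and 8.17. Epcam, an epithelial adhesion molecule, read 5.42 and 7.22, and the chloride channel Cftr was below the floor in both, at 4.95 and 5.13. Of 13 duct markers measured 10 were above the floor in Fbw7 +/+ and 11 in Fbw7 F/F ductal cells. Markers of other cells also read above the floor in the ductal arrays. Of 14 mesothelial markers 13 were above the floor in each, among them Msln (10.61 and 10.73) and Upk3b (10.62 and 10.70). Of 16 mesenchymal markers that are not collagens, 13 were above it in Fbw7 +/+ and 12 in Fbw7 F/F ductal cells. In bulk samples such as these, fewer cells of a type and less RNA per cell cannot be told apart.

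The comparison of Fbw7 F/F with Fbw7 +/+ ductal cells asks how transcripts differ where Fbw7, a ubiquitin ligase subunit, is floxed for deletion by Cre. The deletion itself was not checked here. Collagen chains of types I, III and XIV and some of types V and VI read lower in the Fbw7 F/F array, and most other chains read exactly the same in both. Of the 44 chains, 4 were at least 2-fold lower (Col1a1, Col1a2, Col6a3 and Col6a5) and 0 at least 2-fold higher. Col26a1 was at -0.04, and 6 chains were slightly higher, by at most 0.33. The 4 chains are 9.09% of all, against 0.933% of all 19938 genes 2-fold lower and 0.752% 2-fold higher. Among genes above the floor the numbers were 4 of 33 chains, against 1.81% of 10035 genes lower and 1.43% higher. Of the 33 chains, 32 were above the floor in both ductal arrays. At 1.5-fold, 9 chains were lower and 0 higher, or 20.5% of the chains against 3.79% of all genes lower and 1.71% higher. Above the floor these shares of genes were 7.25% and 2.81%. Lower by any amount were 11 of the 33 chains above the floor (33.3%), near the 35.4% of all genes above it. An identical value in both arrays was found for 27 chains (61.4%), close to the 59.1% of all genes; above the floor it was 19 of 33 against 48.2%.

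**Figure D1:**
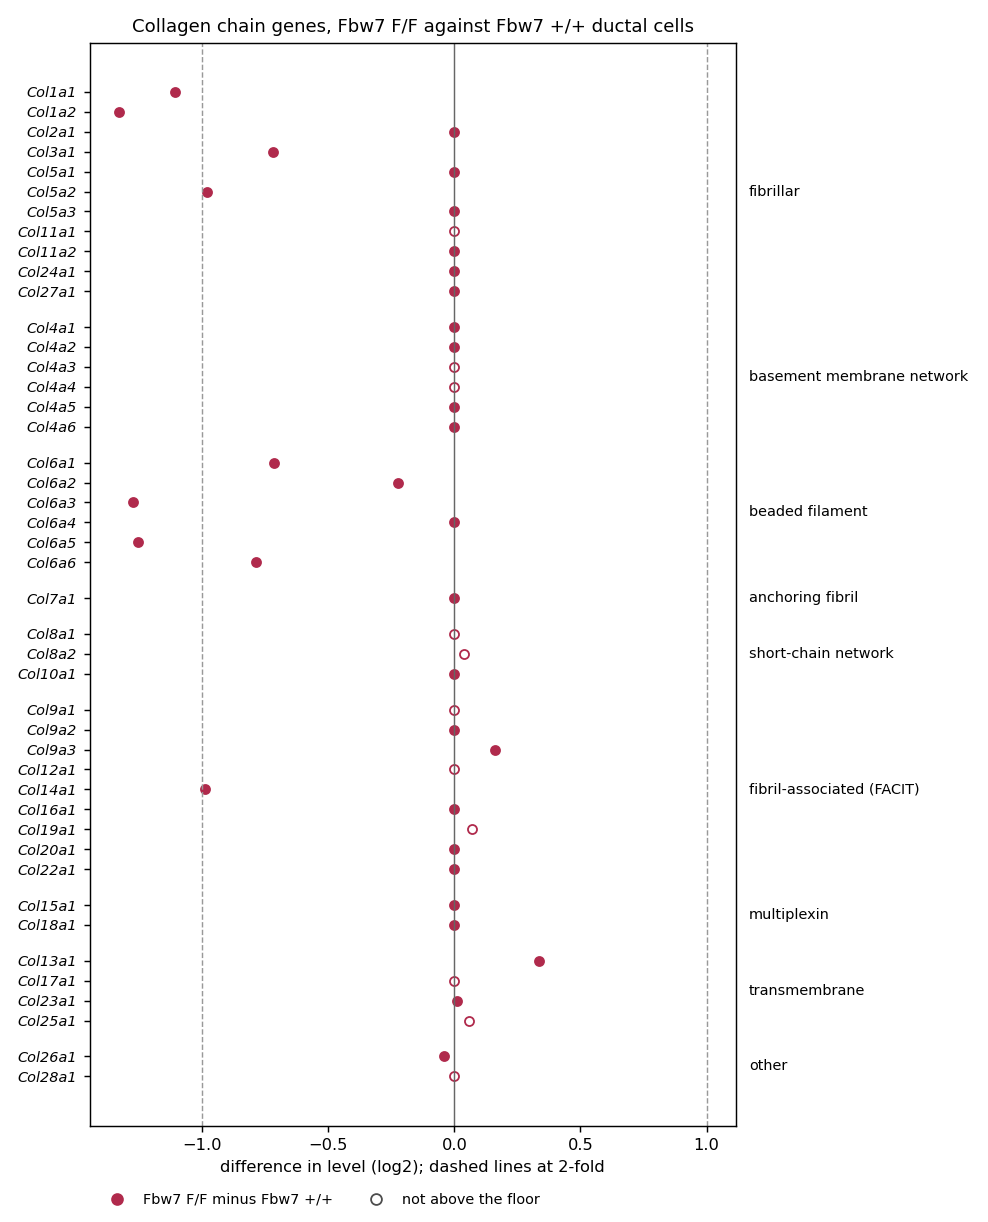
Difference in level between Fbw7 F/F and Fbw7 +/+ ductal cells (log2, x axis) for each of the 44 collagen chain genes, ordered by class; 1 point is 1 gene from 1 array per group, filled where the gene was above the floor, and dashed lines mark 2-fold. Col1a1, Col1a2, Col6a3 and Col6a5 lie beyond the left line, Col14a1 (-0.99) and Col5a2 (-0.98) lie just inside it, and all 6 type IV chains lie at 0.

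Among fibrillar chains, the 4 that differed were all lower in the Fbw7 F/F array. Col1a1, a chain of type I collagen, read 9.25 in Fbw7 +/+ ductal, 8.15 in Fbw7 F/F ductal and 6.81 in beta cells. Col1a2, its partner in the same triple helix, read 10.88, 9.55 and 6.48 in that order. For both chains the Fbw7 F/F array lay between the other arrays, and it was 2.15-fold lower than Fbw7 +/+ for Col1a1 and 2.51-fold lower for Col1a2. After quantile normalization of the arrays the difference of Col1a1 was -0.92 in place of -1.11, under the 2-fold threshold. Col3a1, the chain of type III collagen that is laid down with type I, read 10.69, 9.97 and 7.78, a difference of -0.72 between the ductal arrays. Col5a2, a chain of the type V collagen that starts fibrils, read 7.33, 6.35 and 5.70, a difference of -0.98. Its partner Col5a1 read 6.50 in all 3 arrays, and the third type V chain Col5a3 read 5.94 in both ductal arrays. Of the 3 type V chains, 1 thus differed between the ductal arrays. The other fibrillar chains above the floor, Col2a1, Col11a2, Col24a1 and Col27a1, were identical in both ductal arrays.

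Type VI was the class with the most chains lower. Of its 6 chains 5 read lower in Fbw7 F/F ductal cells and 1 was identical, where 35.4% of all genes above the floor read lower. The class median was -0.75 as deposited, against 0 over all genes, and -0.52 after quantile normalization, against 0.01. After quantile normalization Col6a1 was at -0.49 and Col6a6 at -0.56, both under 1.5-fold, and Col6a3 and Col6a5 were at -1.01 and -1.24. Col6a1 read 8.40 in Fbw7 +/+ ductal, 7.69 in Fbw7 F/F ductal and 7.69 in beta cells. Col6a2, which assembles with it, read 8.31, 8.09 and 8.09, a difference of -0.22 between the ductal arrays that was -0.04 after quantile normalization. In both genes the Fbw7 F/F and beta cell arrays held the same value. Col6a3, the long chain that completes the classical type VI heterotrimer, read 8.001, 6.729 and 7.107, and was 2.42-fold lower in Fbw7 F/F than in Fbw7 +/+ ductal cells. Col6a4, Col6a5 and Col6a6 encode chains that can stand in for it. Col6a5 read 10.54, 9.28 and 6.00 and was 2.39-fold lower in Fbw7 F/F ductal cells. Its further probe set read 11.15, 9.93 and 4.72, a difference of -1.22 between the ductal arrays. Col6a6 read 8.32, 7.53 and 7.79, and 7.50, 6.49 and 6.31 on its further probe set, so the ductal difference was -0.79 on one and -1.01 on the other. Both genes were thus lower on each of their probe sets. Col6a4 read 5.41 in all 3 arrays.

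**Figure D2:**
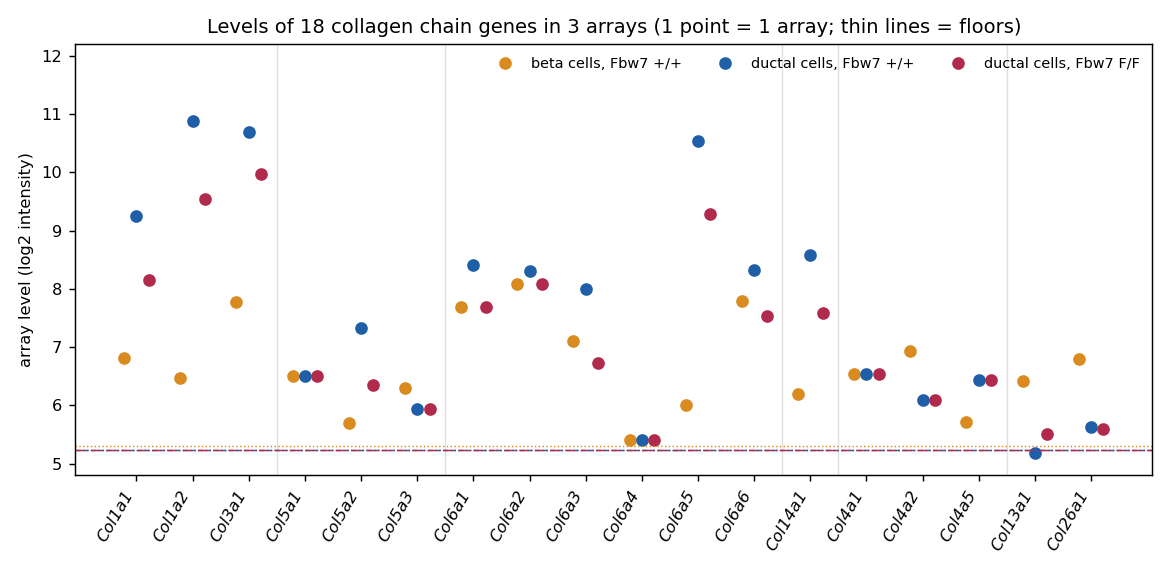
Levels (log2 intensity, y axis) of 18 collagen chain genes (x axis) in beta cells, Fbw7 +/+ ductal cells and Fbw7 F/F ductal cells; 1 point is 1 array and thin lines are the floors of the 3 arrays. The Fbw7 +/+ ductal point lies above the Fbw7 F/F point for Col1a1, Col1a2, Col3a1, Col5a2, Col14a1 and 5 type VI chains, while Col4a1 and Col5a1 lie at 1 level each.

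Fibril-associated collagens followed with 1 chain. Col14a1, which binds to the surface of type I fibrils, read 8.58 in Fbw7 +/+ ductal, 7.59 in Fbw7 F/F ductal and 6.19 in beta cells. The ductal arrays were 1.98-fold apart, just under the threshold. Col9a3, a cartilage type IX chain, read 0.16 higher in Fbw7 F/F ductal cells, and the other 4 chains of this class above the floor (Col9a2, Col16a1, Col20a1 and Col22a1) were identical in the ductal arrays.

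Chains of basement membrane and epithelial collagens read alike in both ductal arrays. Col4a1 and Col4a2, the chains of the common type IV network, read 6.54 and 6.09 in each. Col4a5 (6.44) and Col4a6 (5.82) were likewise identical, and Col4a3 and Col4a4 were below the floor. Col7a1, the anchoring fibril chain that ties epithelium to the matrix, read 5.87 in both. Col15a1 (5.28) and Col18a1 (6.18), which sit in or next to basement membranes, and Col10a1 (5.34), a short-chain network collagen, were identical too. Of these, Col15a1 and Col10a1 lay close to the floor. Identical values are common in these arrays, at 59.1% of all genes and 48.2% of those above the floor. Among transmembrane collagens, Col13a1 read 5.18 in Fbw7 +/+ and 5.51 in Fbw7 F/F ductal cells, the first of these below the floor, and Col23a1 read 5.50 and 5.51. The difference of 0.33 for Col13a1 was the most positive of the 44.

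With the floor raised to the 75th percentile of each array, 12 chains remained; 10 of them read lower in Fbw7 F/F ductal cells and 2, Col4a1 and Col5a1, were identical. Over all 5014 genes above that floor, 52.0% read lower, 17.1% higher and 31.0% were identical, with 3.11% at least 2-fold lower and 2.31% at least 2-fold higher. The 4 chains at least 2-fold lower were all among the 12.

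Promoter sequences are shown for chains that read lower together. RefSeq windows (GRCm38.p6) were matched for 35 of the 44 genes, and for 6 of the 9 chains at least 1.5-fold lower in Fbw7 F/F ductal cells. Printed are the 150 bases before the annotated start of these 6 and, for contrast, of Col5a1, which read the same in all 3 arrays as deposited. Capitals mark the TATA box core (TATAAA), the CCAAT box (CCAAT) and the GC box (GGGCGG), each searched on both strands; no 2 matches overlap in the printed windows. The windows are chr6:4505468-4505617 on the plus strand for Col1a2, chr1:45311388-45311537 on the plus strand for Col3a1, chr10:76726045-76726194 on the minus strand for Col6a1, chr1:90843972-90844121 on the minus strand for Col6a3, chr9:105960644-105960793 on the minus strand for Col6a5, chr9:105828086-105828235 on the minus strand for Col6a6 and chr2:27886275-27886424 on the plus strand for Col5a1.
Col1a2: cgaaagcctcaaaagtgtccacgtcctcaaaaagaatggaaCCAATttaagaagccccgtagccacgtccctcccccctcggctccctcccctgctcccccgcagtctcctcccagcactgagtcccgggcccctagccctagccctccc
Col3a1: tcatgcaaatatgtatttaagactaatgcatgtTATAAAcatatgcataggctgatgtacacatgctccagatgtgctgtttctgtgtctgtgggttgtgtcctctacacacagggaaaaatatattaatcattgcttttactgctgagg
Col6a1: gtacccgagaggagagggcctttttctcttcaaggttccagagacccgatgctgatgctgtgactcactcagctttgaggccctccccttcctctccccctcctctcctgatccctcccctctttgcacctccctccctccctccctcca
Col6a3: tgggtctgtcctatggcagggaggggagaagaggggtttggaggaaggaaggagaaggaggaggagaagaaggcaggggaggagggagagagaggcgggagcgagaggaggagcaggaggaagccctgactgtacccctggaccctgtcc
Col6a5: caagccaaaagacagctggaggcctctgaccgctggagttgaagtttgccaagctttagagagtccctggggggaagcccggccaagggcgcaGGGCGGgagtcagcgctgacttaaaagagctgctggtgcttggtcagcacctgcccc
Col6a6: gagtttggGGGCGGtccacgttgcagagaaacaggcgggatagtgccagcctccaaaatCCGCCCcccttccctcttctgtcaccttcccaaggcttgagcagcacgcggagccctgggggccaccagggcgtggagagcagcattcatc
Col5a1: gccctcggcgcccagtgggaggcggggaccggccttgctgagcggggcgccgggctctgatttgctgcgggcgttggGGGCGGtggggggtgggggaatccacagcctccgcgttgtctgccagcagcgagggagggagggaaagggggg
A CCAAT lies 109 to 105 bases before the start in Col1a2 and a TATAAA 117 to 112 bases before it in Col3a1. Col6a5 has 1 GGGCGG, Col6a6 has 1 on each strand, and Col5a1 has 1. The Col6a1 and Col6a3 windows hold none of these strings. Over all 32851 windows of this length, 7.57% hold the TATA box core, 24.5% the CCAAT box and 28.6% the GC box. Of the 6 windows of lower chains 1, 1 and 2 hold them in that order, and of 25 windows of chains identical in the ductal arrays 3, 7 and 13. No motif was held by all 6 lower chains, and a match is a description of letters only.

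Collagen genes lie next to each other in several places, with no other protein-coding gene between them in the RefSeq table: 15 of the 44 form 8 adjacent pairs. Col3a1 and Col5a2, neighbours on chromosome 1, were both lower in Fbw7 F/F ductal cells (-0.72 and -0.98). The neighbours Col6a1 and Col6a2 on chromosome 10 were at -0.72 and -0.22. On chromosome 9 Col6a6 (-0.79) and Col6a5 (-1.25) stand beside Col6a4, which was identical. The 6 type IV genes form 3 of the pairs, and both members of each were identical in the ductal arrays. Col4a1 and Col4a2 differed in the beta cell array, where as deposited Col4a1 read the same as in ductal cells and Col4a2 was 0.84 higher.

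Most enzymes and chaperones of collagen synthesis also read lower in Fbw7 F/F ductal cells. Of 24 measured synthesis genes, 19 were above the floor. Among these 2 were at least 2-fold lower, against 1.81% of all genes above the floor, and 0 higher; 18 were lower by any amount and 1 was identical. The median difference was -0.43 against 0 over all genes. By any amount 94.7% were lower, against 35.4% of all genes above the floor; above the 75th percentile floor it was 15 of 16, against 52.0%. Fkbp14, a prolyl isomerase of the endoplasmic reticulum, read 7.37 in Fbw7 +/+ and 6.17 in Fbw7 F/F ductal cells. P4ha1, a catalytic subunit of the prolyl hydroxylase that stabilises the triple helix, read 6.97 and 5.85. These were the 2 synthesis genes at least 2-fold lower, at 2.29-fold and 2.17-fold, and after quantile normalization 0 were. Plod2, a lysyl hydroxylase that sets the kind of crosslink, was at -0.65 and Serpinh1, the collagen chaperone, at -0.67. Sparc, a matrix protein that binds collagen, was at -0.37. Tmem38b, an ion channel of the endoplasmic reticulum, was at -0.07 and Ctage5, an export factor, was identical.

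Genes that trim, bundle and crosslink collagen outside the cell gave 3 of 19 measured at least 2-fold lower as measured (Bgn, Tgm2 and Loxl4) and 0 higher; with levels raised to the floor it was 2, Bgn and Tgm2. Of all genes 0.933% were 2-fold lower and 0.752% 2-fold higher. Above the floor it was 3 of 15 lower as measured, against 1.81% of genes lower and 1.43% higher. The median was -0.34 over the 15 above the floor and -0.26 over all 19. Bgn, the fibril-binding proteoglycan biglycan, read 10.003 in Fbw7 +/+ and 8.696 in Fbw7 F/F ductal cells. Tgm2, a crosslinking transglutaminase, read 10.16 and 9.06. Loxl4, a lysyl oxidase relative, read 6.12 and 5.08, the second below the floor, so it was at least 1.84-fold lower. Lox, the lysyl oxidase that crosslinks fibrillar collagen, was at -0.66, and Dcn, the proteoglycan decorin, at -0.22. Tll1, a procollagen protease, was at 0.16, and Prelp, a fibril-binding proteoglycan, Adamts3 and Adamts14, which encode propeptidases, were identical.

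Receptors and degrading enzymes gave 1 of 17 measured at least 2-fold lower and 0 higher, against 0.933% and 0.752% of all genes. The 7 above the floor had a median of -0.59, with 6 lower and 1 identical, while over all 17 the median was 0, with 8 lower, 1 higher and 8 identical. Mmp2, a gelatinase, read 8.06 in Fbw7 +/+, 5.89 in Fbw7 F/F ductal and 6.55 in beta cells, and was 4.51-fold lower in Fbw7 F/F than in Fbw7 +/+ ductal cells. Mmp14, the membrane protease that activates it, was at -0.75. The collagen receptor kinases Ddr1 and Ddr2 were at -0.73 and -0.53. Itga10, a collagen-binding integrin chain, was at -0.06 and Mrc2, an uptake receptor for collagen, was identical.

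Markers of other cells that moved with the collagens are given beside them. Of the 16 mesenchymal markers, which include 3 genes of the crosslinking list (Dcn, Lum and Loxl1), 13 were above the floor. All 13 read lower in Fbw7 F/F ductal cells and 4 were at least 2-fold lower as measured. Of all genes above the floor 35.4% read lower and 1.81% were at least 2-fold lower. The mesenchymal markers had a median of -0.66, from Pdgfra (9.71 in Fbw7 +/+ and 7.73 in Fbw7 F/F ductal cells) and Fbln1 (-1.41) to Dcn (-0.22) and Pdpn (-0.03). The log2 of their summed intensity was 13.76 in Fbw7 +/+ ductal, 13.18 in Fbw7 F/F ductal and 11.31 in beta cells. The 9 pericyte and smooth muscle markers had 5 above the floor, from Des (-1.02) and Acta2 (-0.45) to Rgs5 (0.66), with a summed log2 intensity of 8.89, 8.65 and 8.49. The 14 mesothelial markers were centred near no difference (median 0.07 for the 13 above the floor, 0 of them 2-fold apart), from Lrrn4 (-0.37) and Wt1 (-0.29) to Igfbp5 (0.75) and Krt14 (0.89), and their summed log2 intensity was 13.66, 13.78 and 9.61. Duct markers read higher: 5 of 13 passed 2-fold upward and none downward, against 0.752% and 0.933% of all genes. The 11 above the floor had a median of 0.96, from Krt19 (0.41) and Krt7 (0.54) to Muc1 (2.24) and Cdh1 (2.63). Acinar markers read higher too, 8 of 12 by at least 2-fold, against the same 0.752% of all genes. The 10 above the floor had a median of 1.52, and Cpa1, a pancreatic carboxypeptidase, read 11.03 and 12.38. Of 12 endothelial and 12 leukocyte markers measured, 4 and 2 were above the floor in each ductal array. Among these were the endothelial marker Esam (6.33 in both) and the leukocyte marker Cd68 (5.89 and 5.68). The endothelial marker Pecam1 (4.403 in both) and the leukocyte marker Ptprc (3.715 and 3.995) were below the floor in both ductal arrays. The part of a changed share of mesenchymal cells in the collagen differences was not tested.

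**Figure D3:**
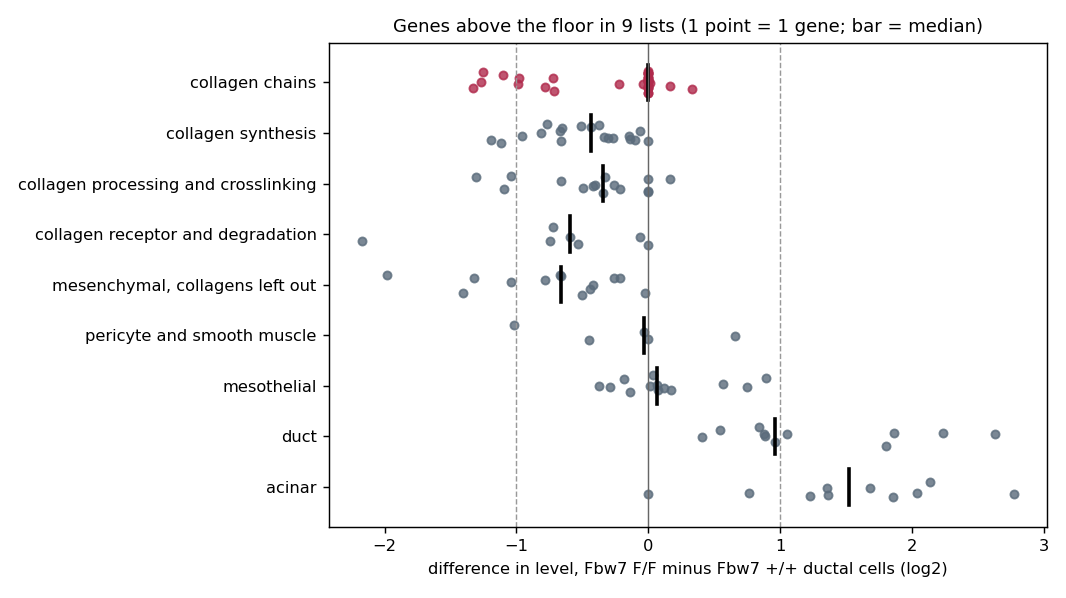
Difference in level between Fbw7 F/F and Fbw7 +/+ ductal cells (log2, x axis) for genes above the floor in 9 lists (y axis); 1 point is 1 gene, shifted at random up or down for sight, black bars are medians and dashed lines mark 2-fold. Of 33 collagen chains 19 lie at 0 and 9 lie from -0.72 to -1.33, and the mesenchymal list without collagens has its median at -0.66.

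Beta cells were compared with each ductal array to place the collagen levels against an endocrine population. The 2 comparisons share the beta cell array and each shares a ductal array with the comparison above. Against Fbw7 +/+ ductal cells, 6 of 44 chains were at least 2-fold lower in beta cells and 2 at least 2-fold higher. The 13.6% lower is near the 14.5% of all genes, and the 4.55% higher stands against 7.41%. Among genes above the floor it was 6 and 2 of 33 chains, against 25.8% lower and 6.37% higher. After quantile normalization 6 were lower and 5 higher, so that the share of higher calls went from 25.0% to 45.5%, and with each array centred it was 12.5%. Against Fbw7 F/F ductal cells, 5 chains (11.4%) were lower and 1 (2.27%) higher, with 12.9% and 6.05% of all genes, and 23.0% and 5.13% of those above the floor. Quantile normalization gave 3 lower and 7 higher, and the share of higher calls went from 16.7% to 70.0%. The median over all genes above the floor was -0.11 against Fbw7 +/+ and -0.05 against Fbw7 F/F ductal cells, and quantile normalization moved it up by 0.20 and 0.15.

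The lower chains were of the fibrillar, type VI and fibril-associated classes. Col6a5 was 23.2-fold lower in beta than in Fbw7 +/+ ductal cells and 9.72-fold lower than in Fbw7 F/F ductal cells. Col1a2 was 21.1-fold and 8.40-fold lower, Col3a1 7.55-fold and 4.58-fold, Col1a1 5.44-fold and 2.53-fold, and Col14a1 5.22-fold and 2.63-fold. Col5a2 was 3.09-fold lower than in Fbw7 +/+ and 1.57-fold lower than in Fbw7 F/F ductal cells. All 6 were lower in beta cells as deposited and with quantile normalization, centring or a loess trend removed, but against Fbw7 F/F ductal cells Col1a1 and Col14a1 were under 2-fold after quantile normalization (-0.55 and -0.91) and after removal of a loess trend (-0.43 and -0.80), as was Col3a1 after the latter (-0.90). The partners Col1a1 and Col1a2 differed by unequal amounts, -2.44 and -4.40 against Fbw7 +/+ ductal cells.

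The direction of the other type VI chains between beta and Fbw7 +/+ ductal cells turned with the scaling. Against Fbw7 +/+ ductal cells Col6a1, Col6a2, Col6a3 and Col6a6 read -0.72, -0.22, -0.89 and -0.53 as deposited, and 0.47, 0.95, 0.13 and 0.65 after quantile normalization. Col6a5 was lower in both settings, at -4.535 and -3.995. Against Fbw7 F/F ductal cells the 4 chains were at 0, 0, 0.38 and 0.25 as deposited, and at 0.96, 0.99, 1.14 and 1.21 after quantile normalization, where Col6a3 and Col6a6 passed 2-fold. With each array centred Col6a1 and Col6a2 were at -0.18, while Col6a3 (0.20) and Col6a6 (0.08) were still higher in beta cells; the further probe set of Col6a6 was at -0.18 as deposited.

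**Figure D4:**
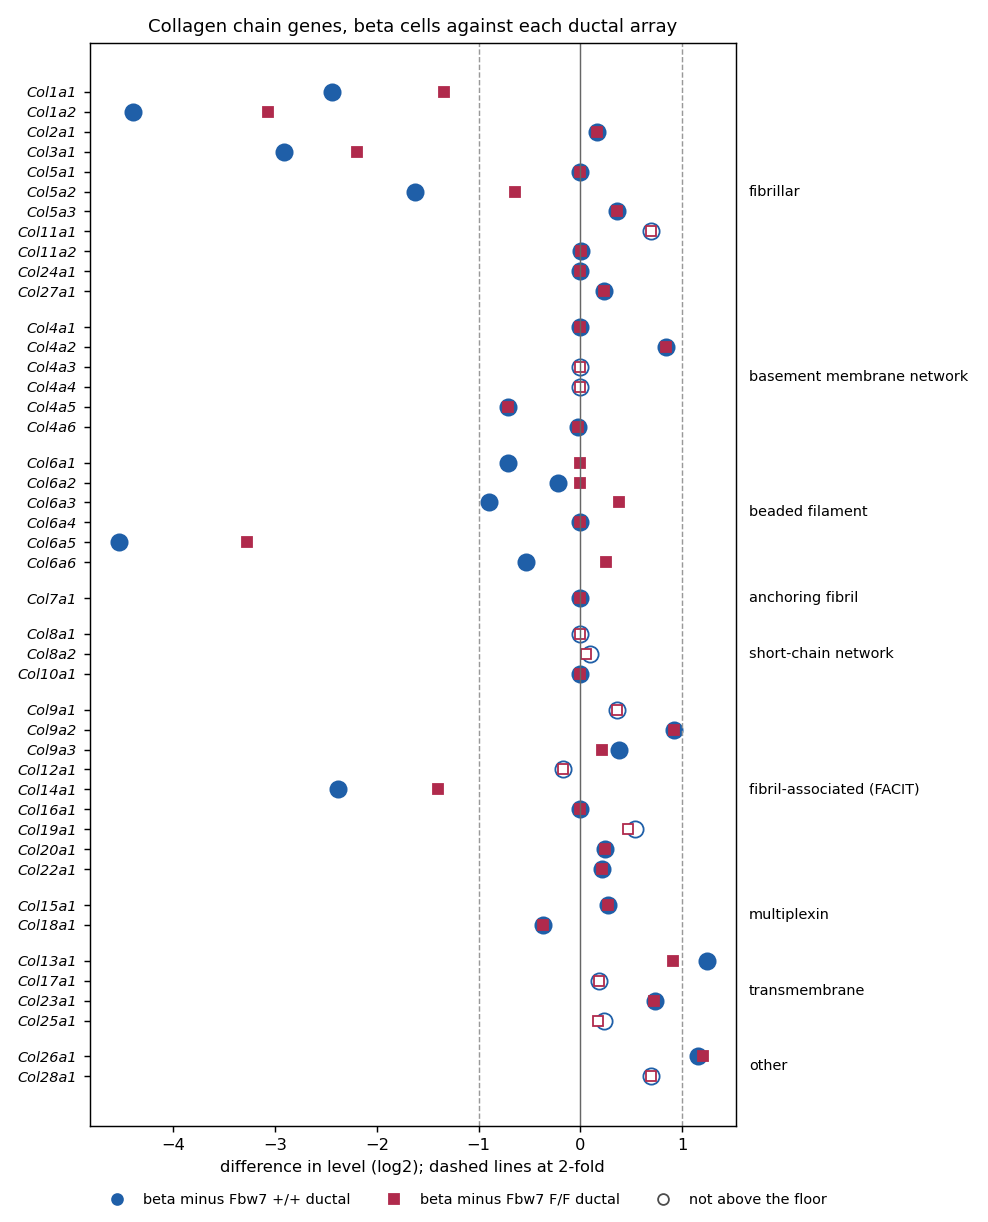
Difference in level between beta cells and each ductal array (log2, x axis) for the 44 collagen chain genes, ordered by class; circles are against Fbw7 +/+ and squares against Fbw7 F/F ductal cells, open where the gene was not above the floor, and dashed lines mark 2-fold. Col1a1, Col1a2, Col3a1, Col6a5 and Col14a1 lie beyond the left line for both arrays, and Col26a1 lies beyond the right one for both.

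Col26a1 and Col13a1 were the 2 chains past 2-fold on the side of the beta cells. Col26a1, a short secreted collagen, read 6.79 in beta cells, 5.63 in Fbw7 +/+ and 5.59 in Fbw7 F/F ductal cells, or 2.23-fold and 2.30-fold higher; with each array centred the first difference was 0.95. Col13a1, a membrane-spanning collagen at cell adhesions, read 6.42 in beta cells against 5.18, below the floor, and 5.51. It was at least 2.27-fold higher than in Fbw7 +/+ ductal cells and 1.87-fold higher, under the threshold, than in Fbw7 F/F ductal cells. Col9a2 (0.92 higher than in either ductal array), Col4a2 (0.84) and Col23a1 (0.74 and 0.73) came next and were under 2-fold as deposited. After quantile normalization these 3 were at 1.55, 1.52 and 1.04 against Fbw7 +/+ ductal cells. Markers of other cells also read higher in the beta cell array. Compared with Fbw7 +/+ ductal cells 5 of 12 endothelial, 8 of 12 leukocyte and 8 of 12 acinar markers were at least 2-fold higher as measured. Of all genes 7.41% were. Above the floor it was 5 of 10, 6 of 9 and 8 of 10 in that order, against 6.37% of genes. Among them were the endothelial markers Emcn (7.02 and 3.37) and Pecam1 (6.73 and 4.403), both below the floor in Fbw7 +/+ ductal cells. The log2 of the summed intensity was 9.84 in beta and 8.82 in Fbw7 +/+ ductal cells for the endothelial list, 9.87 and 8.12 for the leukocyte list and 15.35 and 13.63 for the acinar list. Their part in the levels of these chains was not tested. Col4a5 went the other way, at -0.71 against both arrays, and Col18a1, the source of endostatin, at -0.36. In all, 10 chains read the same in all 3 arrays as deposited: Col4a1, Col4a3, Col4a4, Col5a1, Col6a4, Col7a1, Col8a1, Col10a1, Col16a1 and Col24a1. After quantile normalization their differences between beta and Fbw7 +/+ ductal cells went from -0.35 (Col8a1) to 0.59 (Col5a1) and 0.61 (Col4a1).

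The collagen-related lists are read here against all genes, of which 25.8% above the floor were at least 2-fold lower in beta than in Fbw7 +/+ ductal cells and 14.5% with no floor. Of 24 synthesis genes 11 were at least 2-fold lower, led by Plod2, at least 9.12-fold lower, and Serpinh1, 9.61-fold lower; Colgalt2, a collagen galactosyltransferase, was the 1 gene above the floor that read over 2-fold higher as measured, but its ductal level was below the floor and it was at least 1.15-fold higher. Of 19 processing and crosslinking genes 11 were at least 2-fold lower as measured and 0 higher, with Bgn 17.1-fold and Tgm2 11.1-fold lower and Adamts3 at 0.51. Of 17 receptor and degradation genes 4 were at least 2-fold lower and 0 higher, with Mmp14 9.50-fold and Itgb1, the common integrin beta chain of collagen receptors, 7.22-fold lower; over all 17 genes, however, 7 read higher and 7 lower and the median was 0. Against Fbw7 F/F ductal cells the counts at least 2-fold lower were 9 of 24, 10 of 19 and 2 of 17, where 12.9% of all genes were, so that the receptor list (11.8%) was near that share, with Bgn 6.93-fold, Serpinh1 6.05-fold and Mmp14 5.65-fold lower and Mmp2 0.67 higher. Against Fbw7 +/+ ductal cells mesenchymal markers moved with these lists, 12 of 16 at least 2-fold lower as measured, led by Fn1 and Pdgfra. The matrix protein gene Dpt was the 1 marker at least 2-fold higher as measured. Summed intensities of the mesenchymal markers are given above. Mesothelial markers also read lower than in Fbw7 +/+ ductal cells, 12 of 14 at least 2-fold, led by Muc16 and Lrrn4 as measured. Both were below the floor in beta cells, and were at least 26.9-fold (Muc16) and 38.5-fold (Lrrn4) lower. Against Fbw7 F/F ductal cells 11 of 16 mesenchymal and 13 of 14 mesothelial markers were at least 2-fold lower as measured. The part of either list in the collagen values was not tested.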

How the data were processed

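Gene expression was measured on 3 arrays, 1 per pool of sorted cells. The authors deposited log2 intensities, 1 for each of 35556 probe sets and array, made with RMA per the submitters' processing notes. No source used here states the RMA version or whether the arrays were normalized jointly, and their SDs differ (1.57 for beta, 2.02 and 1.97 for ductal arrays). Exact ties between arrays are common, which sets many differences to 0. Per the labels' protocols, 18 ng of RNA was amplified with a whole-transcript kit before labelling.

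The platform annotation gave 1 gene for 21789 probe sets, several for 1621 and none for 12146; only the first were used, and 21698 of them matched a RefSeq gene (GRCm38.p6) by gene ID. For a comparison the brighter of a gene's 2 levels had to exceed the floor of its array. Differences of log2 levels were computed over all genes and counted at 2-fold, with no test. Where 1 level was below the floor, the fold uses the floor in its place and is a lower bound ("at least"). The members and lists were chosen with earlier results of these data known. Named genes are the chains, the 2 highest and 2 lowest differences of each list in each comparison (in the beta cell comparisons fewer are printed), and a fixed set of matrix and cell type genes. Loxl4, Pdx1, Cftr and other list members outside that rule were named after their values were seen. The settings tried besides were a 1.5-fold and a 4-fold threshold, the floor left out or set at the 75th percentile, quantile normalization, centring, a loess trend (span 0.3), the mean of probe sets and levels raised to the floor. The further probe sets of Col6a5 and Col6a6 were tried after seeing the data. The steps were run on simulated data without noise, which checks the code only and not the noise or scaling of these arrays. Work was done in Python 3.11.15 (pandas 2.3.3, numpy 2.4.6; loess from statsmodels 0.14.6; plots from matplotlib 3.10.9).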

Additional observations from a re-analysis of the deposited data

How the results depend on the processing

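With 1 array per group, no left-out replicate could be tried, and the number of arrays limits the precision of every value. No paired analysis was possible because each group is 1 array. Between the ductal arrays 4 chains were at least 2-fold lower; 9 were at 1.5-fold, 0 at 4-fold, 3 after quantile normalization (without Col1a1) and 6 with each array centred (Col14a1 and Col5a2 added), and 0 were higher in each setting tried. Between beta and Fbw7 +/+ ductal cells the 2 higher chains became 5 at 1.5-fold, after quantile normalization and after the loess trend, 0 at 4-fold and 1 with centring. Between beta and Fbw7 F/F ductal cells the 1 higher chain became 5 at 1.5-fold, 0 at 4-fold and 7 after quantile normalization or the loess trend, while the 5 lower became 3 at 4-fold, 3 after quantile normalization and 2 after the loess trend. These counts fell with 4-fold and rose with 1.5-fold by construction; the cause of the others was not tested. Of the 18 differences called at 2-fold, 0 changed sign under the alternatives, and 7 values fell under 2-fold, all after a change of scaling. Another threshold, no floor or a higher floor leaves each difference as it was. The probe set settings can change only Col6a5 and Col6a6, so most of these values were fixed in advance. The further probe sets gave 5 chains in place of 4 between the ductal arrays.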
